A study of Mus musculus with 28 samples.

Results

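CD8 T cells kept under continuous antigen were compared directly with CD4 T cells kept under continuous antigen, gene by gene, on 3 arrays against 3. These 6 arrays, chosen by the group named in their sample titles, are part of a series of 28 mouse arrays. The CD8 cells carried the OT1 receptor transgene, which sees its peptide on MHC class I, and the AND receptor transgene of the CD4 cells sees its peptide on MHC class II. Both are labelled as C57BL/6N. Both lineages were activated for 2 days in culture with plate-bound anti-CD3 and anti-CD28 plus IL7, and then spent 3 days in recipient mice that expressed their antigen, named in the labels as dtg-O or -M hosts. They were purified by sorting from spleen and subcutaneous lymph nodes, and RNA was taken on day 5. What drives the antigen in the hosts, and the hosts' own cells, are not given in the sources used here. Lineage, receptor and antigen differ together between the groups and cannot be told apart.

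The other day 5 groups served as points of comparison. Unstimulated cells (3 CD8 arrays, 2 CD4 arrays) had no antibody in culture and then went into antigen-free mice, and transiently stimulated cells (3 CD8 arrays, 2 CD4 arrays) had the antibody culture followed by antigen-free mice. Cells taken straight from the antibody culture on day 2 (3 CD8 and 3 CD4 arrays) never met a host. The submitters' design text calls the arrays of a group independent biological replicates.

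T cells that keep meeting antigen after activation often enter a hyporesponsive state, called exhaustion for CD8 cells in chronic infection and anergy or tolerance for T cells that meet self antigen. Inhibitory receptors are kept high in such cells and cytokine output falls. CD8 cells are the main killers of the T cell lineage, using perforin and granzymes, whereas CD4 cells act mainly on other cells through cytokines and surface ligands. In chronic infection, interleukin-21 from CD4 cells is known to sustain CD8 cells.

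Levels are log2 signals as deposited, so a difference of 1 is a change of 2-fold. The table has no detection calls, so whether a low signal lay above background was not tested, and a fold that involves a low signal can be understated. The lineage markers fitted the labels on all 6 arrays. Cd8a, a chain of the CD8 co-receptor, had log2 signals of 12.54, 12.76 and 12.58 in CD8 continuous cells, against 5.53, 5.92 and 5.34 in CD4 continuous cells. Cd4 had 6.17, 6.41 and 6.39 in CD8 continuous cells, against 9.48, 9.63 and 9.86 in CD4 continuous cells. Zbtb7b, the transcription factor that directs CD4 commitment, had 7.41, 7.15 and 7.42 in CD8 continuous cells, against 8.60, 8.75 and 8.75 in CD4 continuous cells. Each of these markers separated the groups with no overlap, as did 29.3% of all genes (3627 of 12393).

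Some arrays stood apart. The mean log2 signal of 12 B cell marker genes was 7.08, 6.25 and 8.19 on the CD8 continuous arrays, against 6.77, 5.57 and 5.64 on the CD4 continuous arrays, so the third CD8 array was highest. That array also had the higher mean correlation with the CD8 transient arrays, at 0.976, against 0.958 and 0.962 for the first and second CD8 arrays. The mean of 12 myeloid genes was 7.20, 5.93 and 6.41 on the CD8 arrays, against 8.31, 5.92 and 6.33 on the CD4 arrays, so the first CD4 array was highest. Main counts are therefore also given without both of these arrays, a setting chosen after the values were seen. The second CD4 array differed from the other 5 in 2 sex-linked genes, with Xist at 5.49 against 12.91 or more and Eif2s3y at 9.63 against 3.63 or less. The gap between the 3′ and 5′ actin control probe sets, a sign of RNA integrity and amplification, was 0.31 to 0.56 in CD8 continuous cells and 0.40 to 0.62 in CD4 continuous cells. In these sorted bulk samples, fewer cells of a type and less RNA per cell cannot be told apart.

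Under continuous antigen, 1400 of 12393 genes differed between CD8 and CD4 cells at an adjusted p under 0.05 by limma, which is 11.3% of the genes tested. Of these, 824 genes (6.65%) were higher and 576 (4.65%) were lower in CD8 cells, and 342 differed by 2-fold or more. The median difference over all genes was -0.004, with a median standard error of 0.148. Without the first CD4 and the third CD8 arrays, 1173 genes were called. A fit of all 28 arrays together, which adds the spread of the day 2 arrays, called 27 genes. Of the 84 named genes with a call, 68 lost it there. Among the arrays added, replicate 3 of unstimulated day 2 cells had a median log2 signal of 4.83 (CD4) and 4.97 (CD8). Every other array of the series had 6.29 or more. Cd8a was 9.88 on that CD4-labelled array and 5.78 on that CD8-labelled array, and Cd8b1 was 10.5 and 4.79. The part of these arrays in the loss of calls was not tested.

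**Figure D1:**
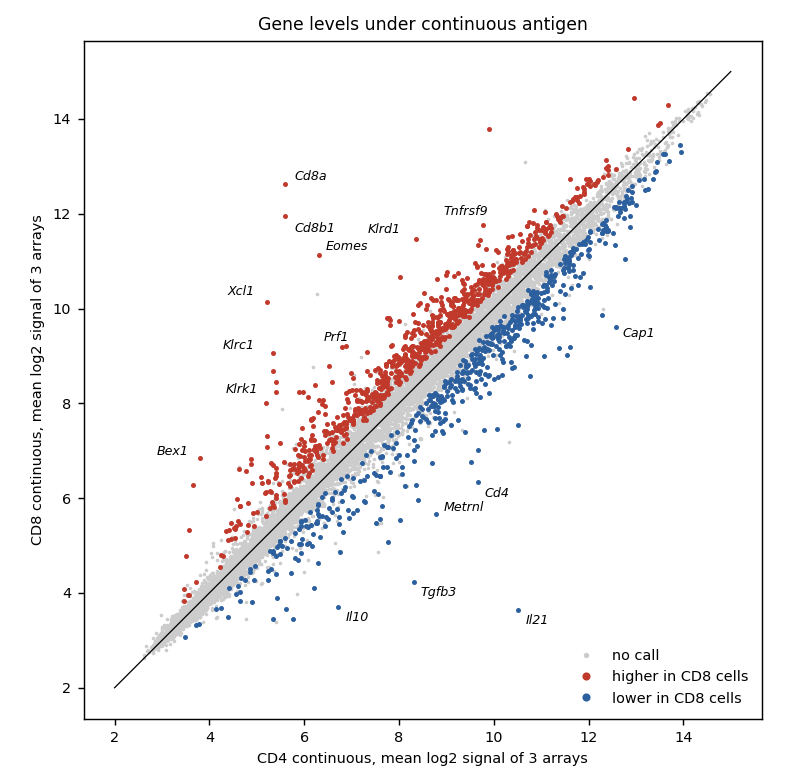
Each point is 1 of the 12393 genes, placed by its mean log2 signal over 3 CD4 continuous arrays (horizontal axis) and 3 CD8 continuous arrays (vertical axis), with equality drawn as a line. The 824 genes called higher in CD8 cells are red and the 576 called lower are blue; Il21 lies farthest below the line and Cd8a farthest above it.

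The largest difference against CD8 cells was in Il21, which encodes interleukin-21, a cytokine of helper cells that acts on B cells and CD8 cells. Il21 had log2 signals of 3.65, 3.86 and 3.42 in CD8 continuous cells, against 10.66, 10.93 and 9.94 in CD4 continuous cells. The groups were far apart, and the low values lay where Il21 also lay in unstimulated cells of both lineages, at 3.81, 3.60 and 3.56 in CD8 cells and 4.06 and 4.08 in CD4 cells. The difference was -6.87 (SE 0.27, adjusted p = 3.44e-09), which is 117-fold. In unstimulated cells the lineages differed by -0.41 (adjusted p = 0.336) and in transiently stimulated cells by -0.74 (adjusted p = 0.0925), neither of them a call. On day 2 Il21 had 3.46, 3.46 and 3.44 in stimulated CD8 cells, against 7.21, 9.94 and 3.45 in stimulated CD4 cells, so 2 CD4 arrays were high and 1 lay with the CD8 arrays (difference -3.41, adjusted p = 0.266).

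Tgfb3, a member of the transforming growth factor beta family, showed a similar pattern. It had 4.25, 4.23 and 4.24 in CD8 continuous cells, against 8.52, 7.87 and 8.53 in CD4 continuous cells. The difference was -4.07 (SE 0.19, adjusted p = 1.98e-08), against -0.14 in unstimulated and 0.04 in transient cells. Il10, an anti-inflammatory cytokine, had 3.48, 4.18 and 3.47 in CD8 continuous cells, against 7.70, 6.49 and 5.97 in CD4 continuous cells. Here the CD4 arrays were more widely spread, but none came near the CD8 arrays. The Il10 difference was -3.01 (SE 0.33, adjusted p = 0.000133), with 0.20 in unstimulated and -0.36 in transient cells. Within each lineage, Il10 under continuous antigen was above the unstimulated level by 3.38 in CD4 cells and by 0.18 in CD8 cells.

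Metrnl, which encodes a secreted protein related to meteorin, had 5.82, 5.82 and 5.34 in CD8 continuous cells, against 9.29, 8.38 and 8.68 in CD4 continuous cells, a difference of -3.12 (SE 0.47, adjusted p = 0.00118). On day 2, straight from the antibody culture, the order was turned round. Metrnl then had 10.07, 8.56 and 9.14 in stimulated CD8 cells, against 5.82, 6.44 and 5.14 in stimulated CD4 cells, a difference of 3.46 (adjusted p = 0.0182). Emp1, a small membrane protein, had 7.80, 7.22 and 5.27 in CD8 continuous cells, against 9.99, 9.02 and 9.54 in CD4 continuous cells. Its difference of -2.75 (SE 0.56, adjusted p = 0.00687) lost the call when only the continuous arrays were fitted (adjusted p = 0.0514).

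The other large differences against CD8 cells were of several kinds. Socs3, an inhibitor of cytokine signalling, had 6.78, 7.74 and 7.82 in CD8 continuous cells, against 10.54, 10.21 and 9.47 in CD4 continuous cells (difference -2.62, adjusted p = 0.000993). Igfbp4, a binding protein for insulin-like growth factors, had 7.09, 7.46 and 8.09 in CD8 cells, against 11.44, 11.00 and 9.09 in CD4 cells. Cap1, an actin regulator, differed by -2.94 (SE 0.15) under continuous antigen, by -2.60 in unstimulated and by -1.92 in transient cells, and was called lower in CD8 cells in all these states. Serpinb1a, a protease inhibitor, differed by -2.68, a call that was lost without the first CD4 array (adjusted p = 0.0536).

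**Figure D2:**
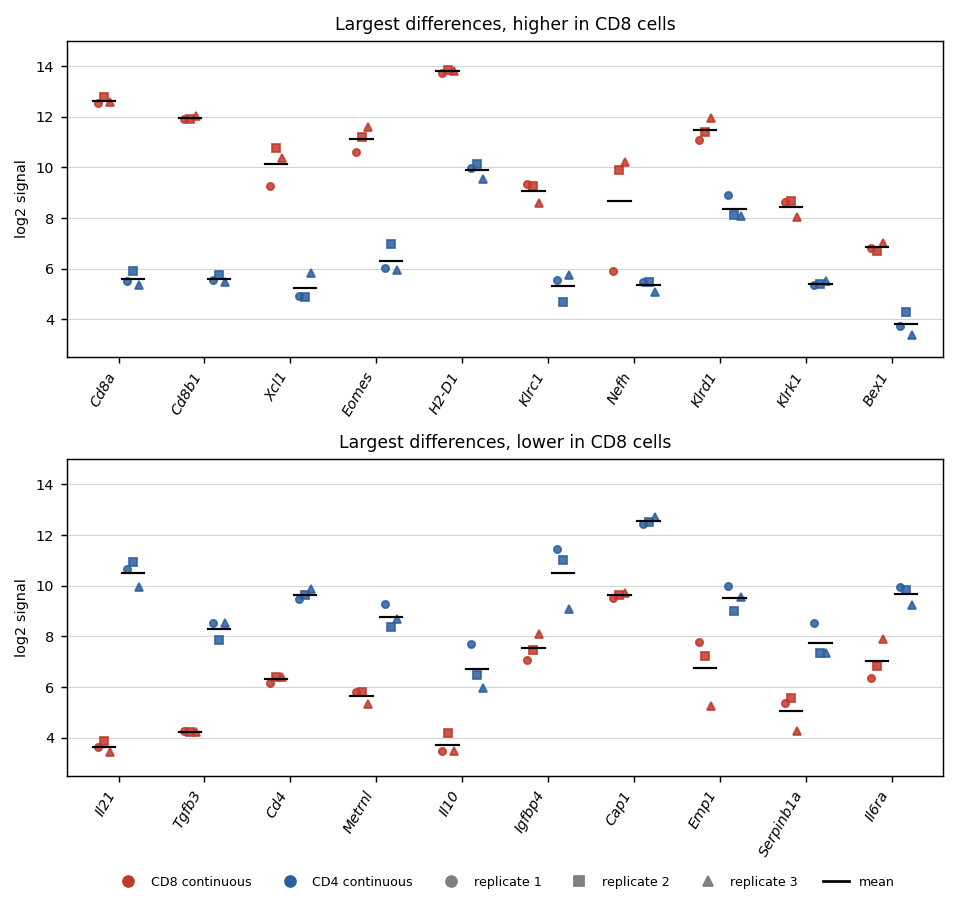
Log2 signals (vertical axis) of the 10 genes with the largest positive and the 10 with the largest negative difference among called genes whose arrays do not overlap; CD8 continuous arrays are red and CD4 continuous arrays blue, the marker shape gives the replicate number and the black bar the mean of 3 arrays. For Nefh 1 CD8 array, at 5.92, sits close to the CD4 arrays, while the CD8 arrays of Tgfb3 lie between 4.23 and 4.25.

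Genes of follicular helper cells, the CD4 cells that help B cells in germinal centres, were lower in CD8 cells where they differed. Of 14 measured members, 6 were lower (Il21, Il6ra, Izumo1r, Icos, Maf and Sh2d1a) and 0 were higher, against 4.65% of all genes called lower, with a median of -0.70 against -0.004 for all genes. The count of 6 was between 4 and 9 when each continuous array was left out in turn, lowest without the first or second CD8 array, and was 8 without both arrays that stood apart. Il6ra, the receptor chain for interleukin-6, had 6.35, 6.82 and 7.89 in CD8 continuous cells, against 9.95, 9.82 and 9.24 in CD4 continuous cells (difference -2.65, SE 0.33, adjusted p = 0.000294). Maf, a transcription factor that acts on Il21 and Il10 in CD4 cells, had 5.61, 5.75 and 5.50 in CD8 cells, against 6.28, 6.35 and 6.29 in CD4 cells. These Maf values did not overlap, and the difference of -0.69 (adjusted p = 0.00559) was modest in size. Izumo1r, or folate receptor 4, differed by -1.56 and the co-stimulatory receptor Icos by -1.03; the Izumo1r call was lost without the third CD4 array or the first or second CD8 array (adjusted p 0.0539 to 0.0667), and the Icos call without the first or second CD4 or CD8 array (adjusted p 0.072 to 0.0894). Bcl6, the defining transcription factor of follicular helper cells, had 6.56, 6.79 and 8.42 in CD8 cells, against 7.96, 8.75 and 8.65 in CD4 cells. The third CD8 array lay inside the CD4 range, and Bcl6 was not called (difference -1.20, adjusted p = 0.0768), whereas without that array it was -1.78 with adjusted p = 0.00201. Pdcd1, often used as a marker of these cells too, did not pass the test, with a difference of 0.04.

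In the other direction, Xcl1 showed the largest difference after the CD8 co-receptor genes. It encodes lymphotactin, a chemokine that attracts cross-presenting dendritic cells. Xcl1 had 9.26, 10.75 and 10.39 in CD8 continuous cells, against 4.92, 4.90 and 5.84 in CD4 continuous cells. Every CD8 array was above every CD4 array, and the difference was 4.91 (SE 0.37, adjusted p = 4.68e-06), or 30.1-fold. The lineages differed by 0.99 in unstimulated cells (adjusted p = 0.0926) and by 1.13 in transient cells (adjusted p = 0.0599). In the antibody culture on day 2 the difference was already 3.08 (adjusted p = 0.0321). Of 10 measured chemokine genes 1, Xcl1, was called, against 11.3% of all genes called in either direction. The count was 2 without the first CD4 array, without the first CD8 array and without both arrays that stood apart.

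Eomes, a T-box transcription factor of cytotoxic and memory CD8 cells, had 10.61, 11.19 and 11.59 in CD8 continuous cells, against 6.02, 6.97 and 5.95 in CD4 continuous cells. The difference of 4.82 (SE 0.28, adjusted p = 2.46e-07) is 28.2-fold. Eomes was higher in CD8 cells in all 4 comparisons, with 3.42 in unstimulated, 3.37 in transient and 2.59 in day 2 cells. Relative to the unstimulated level of the same lineage, Eomes stood at -0.08 in CD8 continuous cells and at -1.48 in CD4 continuous cells. The related factor Tbx21, or T-bet, was not called, with a difference of -0.41 and a 95% interval of -1.18 to 0.35. Runx3, the factor that directs CD8 commitment, was not called under continuous antigen either (difference 0.1, adjusted p = 0.637). It had 5.97, 6.16 and 6.18 in CD8 cells, against 6.03, 5.86 and 6.11 in CD4 cells. All of these lay under the array medians, which were 6.35 or more. In transient cells Runx3 was called higher in CD8 cells, at 0.42 (adjusted p = 0.0134). Of 24 measured transcription factors, 2 were higher (Eomes and Myc) and 2 were lower (Maf and Id2) in CD8 cells. That compares with 6.65% of all genes called higher and 4.65% called lower. The Id2 call, at -0.86, was lost without the first or second CD4 or the second or the third CD8 array (adjusted p 0.136 to 0.183), and with the mean of its probe sets (adjusted p = 0.247).

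The 250 bases before the RefSeq start of Xcl1, Eomes and Il21 are given because these 3 genes show the widest lineage gaps outside the co-receptors, and the gaps of Xcl1 and Il21 did not pass the test in unstimulated or transient cells. Tgfb3 and Il10 have no entry in the promoter table used. Capitals mark matches, on either strand, to 4 motifs: TCACACC for T-box factors, TGANTCA for AP-1, GGAAAA for NFAT and TGTGGT for RUNX factors. Sequences are from mouse build GRCm38.p6, written along each gene's own strand.
Xcl1, chr1:164935523-164935772, minus strand: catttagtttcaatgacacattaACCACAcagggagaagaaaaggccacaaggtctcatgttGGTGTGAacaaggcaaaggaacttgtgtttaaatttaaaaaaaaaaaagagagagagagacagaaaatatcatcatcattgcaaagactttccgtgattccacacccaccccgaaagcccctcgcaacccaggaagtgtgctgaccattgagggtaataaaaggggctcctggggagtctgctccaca
Eomes, chr9:118477939-118478188, plus strand: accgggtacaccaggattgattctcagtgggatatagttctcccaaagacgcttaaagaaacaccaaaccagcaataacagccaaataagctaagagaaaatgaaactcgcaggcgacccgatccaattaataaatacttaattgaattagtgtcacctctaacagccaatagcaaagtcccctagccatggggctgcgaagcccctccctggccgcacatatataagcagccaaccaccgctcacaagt
Il21, chr3:37232637-37232886, minus strand: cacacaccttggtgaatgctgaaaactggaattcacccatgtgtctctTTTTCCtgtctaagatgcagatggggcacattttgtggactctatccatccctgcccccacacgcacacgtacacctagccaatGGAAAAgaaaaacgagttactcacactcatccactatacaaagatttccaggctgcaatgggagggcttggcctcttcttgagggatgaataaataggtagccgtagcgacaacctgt
The Xcl1 window holds 1 T-box match, 188 to 182 bases before the start, and 1 RUNX match, 227 to 222 bases before it. The Il21 window holds 2 NFAT matches, at 202 to 197 and 118 to 113 bases before the start. No match to these 4 motifs lies in the Eomes window. Among 32851 mouse promoter windows of this length, 3.33% hold the T-box motif, 14.0% the RUNX motif, 20.4% the NFAT motif and 6.75% the AP-1 motif. A match is a run of letters and was not tested for binding.

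Some receptors shared with natural killer cells were also higher in CD8 cells. Of 14 measured members of this list, 4 were higher (Klrc1, Klrd1, Klrk1 and Cd160), 1 was lower (Klrb1f) and 9 were not called, with a median of 0.01. The shares of all genes called were 6.65% higher and 4.65% lower. Klrc1 encodes NKG2A, an inhibitory chain that pairs with CD94, and had 9.33, 9.28 and 8.59 in CD8 continuous cells, against 5.57, 4.67 and 5.76 in CD4 continuous cells (difference 3.73, SE 0.32, adjusted p = 1.49e-05). Klrd1, which encodes CD94 itself, had 11.10, 11.38 and 11.93 in CD8 cells, against 8.89, 8.12 and 8.07 in CD4 cells (difference 3.11, SE 0.32, adjusted p = 6.17e-05). The Klrd1 gap was wider in unstimulated cells, at 4.72, and in transient cells, at 4.68.

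Klrk1 encodes NKG2D, an activating receptor for stress ligands. It had 8.62, 8.68 and 8.06 in CD8 continuous cells, against 5.35, 5.38 and 5.51 in CD4 continuous cells, a difference of 3.04 (SE 0.17, adjusted p = 1.28e-07). In unstimulated cells the lineages were close, with a difference of 0.34 (adjusted p = 0.200), and in transient cells they were 3.62 apart. Cd160, an inhibitory receptor of killer cells, differed by 1.26 (adjusted p = 0.0285), a call that was lost without the first or second CD4 array or the second or the third CD8 array (adjusted p 0.0578 to 0.125). Ncr1, a receptor that marks natural killer cells, was not called and had 4.35 to 4.46 in CD8 continuous cells and 4.48 to 4.61 in CD4 continuous cells. The summed linear signal of the 6 natural killer markers measured, Eomes and Gzma included, was 3610 to 11900 in CD8 cells and 1710 to 3570 in CD4 cells.

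Cytotoxic genes moved in both directions, against 6.65% of all genes called higher and 4.65% called lower. Of 18 measured cytotoxic genes, 4 were higher (Prf1, Gzmm, Serpinb9 and Ctsw) and 2 were lower (Gzmc and Srgn) in CD8 cells. The count of 4 was between 1 and 5 when each array was left out, lowest without the first CD4 array, and 0 when only the continuous arrays were fitted. Prf1, the pore-forming perforin, had 9.06, 10.19 and 7.98 in CD8 continuous cells, against 7.47, 7.04 and 7.48 in CD4 continuous cells. The third CD8 array lay closest to the CD4 arrays, and the difference was 1.75 (SE 0.39, adjusted p = 0.0116, and 0.0935 when only the continuous arrays were fitted). Gzmb, the main apoptosis-inducing granzyme, had 13.10, 13.35 and 9.92 in CD8 cells, against 13.26, 12.71 and 12.31 in CD4 cells. Its groups overlapped, with a difference of -0.64 and an interval of -2.12 to 0.85. Gzma, a second granzyme with trypsin-like activity, had 12.78, 13.21 and 8.33 in CD8 cells, against 11.50, 11.07 and 10.57 in CD4 cells (difference 0.39, interval -2.03 to 2.81). In both granzymes the third CD8 array was the lowest of the 6, and without it the differences were 0.47 for Gzmb and 1.94 for Gzma, without a call for either. Gzmk and Fasl, the death ligand, passed the test only without that array, with differences of 1.13 (adjusted p = 0.0183) and 1.57 (adjusted p = 0.0356), against 0.40 and 0.96 with it. Gzmm had 8.91, 8.38 and 6.67 in CD8 cells, against 6.34, 6.63 and 6.13 in CD4 cells, and Serpinb9, an inhibitor of granzyme B, had 10.77, 10.70 and 8.96 in CD8 cells, against 9.09, 8.69 and 8.86 in CD4 cells; the Gzmm call was lost without the first or the third CD4 or the first or second CD8 array (adjusted p 0.0738 to 0.107), and the Serpinb9 call without any 1 of the CD4 arrays or the first or second CD8 array (adjusted p 0.0629 to 0.145). Gzmc was lower in CD8 cells (difference -0.95, adjusted p = 0.00312).

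Inhibitory receptors, which limit T cells under long stimulation, gave 1 higher (Cd160) and 1 lower (Ctla4) among 8 measured. Among all genes, 6.65% were called higher and 4.65% lower. Ctla4, which competes with CD28 for its ligands, had 9.70, 10.49 and 11.16 in CD8 continuous cells, against 12.54, 12.06 and 11.49 in CD4 continuous cells. The ranges did not meet, and the difference was -1.58 (SE 0.31, adjusted p = 0.00593, and 0.071 when only the continuous arrays were fitted). Pdcd1, which encodes PD-1, differed by 0.04 with a 95% interval of -0.85 to 0.93. A gap anywhere in that range, in either direction, is compatible with these arrays. Lag3, a receptor for MHC class II, differed by -0.26 (interval -0.88 to 0.36). Havcr2, which encodes TIM-3, had 9.58, 9.08 and 5.69 in CD8 cells, against 7.51, 7.79 and 6.14 in CD4 cells, with an interval of -0.92 to 2.86. Cd28, the co-stimulatory receptor with which Ctla4 competes, was lower in CD8 cells (difference -0.87, adjusted p = 0.00283).

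Cytokine and cytokine receptor counts are read against 6.65% of all genes called higher and 4.65% called lower. Among 17 measured cytokine genes, 1 was higher (Csf2) and 2 were lower (Il10 and Il21) in CD8 cells. The Csf2 call was lost without the first or the third CD4 or the second or the third CD8 array (adjusted p 0.0772 to 0.121). Csf2 had 5.16, 5.38 and 5.59 in CD8 cells, against 4.58, 4.72 and 4.25 in CD4 cells. These lay under the array medians of 6.35 or more, and the mean in unstimulated CD8 cells was 5.24. Ifng, the main inflammatory cytokine of both lineages, had 9.65, 12.13 and 10.24 in CD8 cells, against 12.48, 11.69 and 10.51 in CD4 cells. The Ifng arrays overlapped, and the interval of the difference was -2.22 to 0.44. Of 23 cytokine receptor and signalling genes, 3 were lower in CD8 cells (Il6ra, Socs3 and Il18r1) and 0 were higher; the Il18r1 call, at -1.64, was lost without any 1 of the CD4 arrays (adjusted p 0.0511 to 0.0593). The count of 3 was 6 without the third CD8 array and without both arrays that stood apart.

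The TNF superfamily has ligands and receptors that carry co-stimulation and death signals. Of its 14 measured members, 2 were higher (Tnfrsf9 and Tnfsf4) and 3 were lower (Tnfrsf25, Tnfrsf18 and Cd40lg) in CD8 cells. The shares of all genes were 6.65% called higher and 4.65% called lower. Tnfrsf9, which encodes the co-stimulatory receptor 4-1BB, had 10.89, 11.84 and 11.59 in CD8 continuous cells, against 9.52, 9.86 and 9.75 in CD4 continuous cells (difference 1.73, SE 0.23, adjusted p = 0.000533). In unstimulated cells the order was the opposite, with 7.74, 7.89 and 8.04 in CD8 cells, against 10.84 and 10.11 in CD4 cells. Tnfrsf25, or death receptor 3, had 5.74, 6.03 and 7.07 in CD8 continuous cells, against 8.55, 9.04 and 7.46 in CD4 continuous cells (difference -2.07, adjusted p = 0.00364, and 0.0529 when only the continuous arrays were fitted). The Tnfrsf18 call was lost without the second CD4 or the first CD8 array (adjusted p 0.0512 to 0.0579), and the Cd40lg call without the first or second CD4 or the first or the third CD8 array (adjusted p 0.118 to 0.167). Cd40lg had 5.02, 5.37 and 5.06 in CD8 cells, against 5.65, 5.72 and 5.39 in CD4 cells, under the array medians of 6.35 or more.

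Genes that report or dampen the antigen receptor signal moved in both directions, against 6.65% of all genes called higher and 4.65% called lower. Of 19 measured, 1 was higher (Nr4a2, 1.08, adjusted p = 0.00293) and 3 were lower (Izumo1r, Rnf128 and Nfatc1) in CD8 cells, and the lower count was 0 without the third CD4 array or without the first or second CD8 array. Rnf128 had 3.98, 3.80 and 3.69 in CD8 cells, against 4.41, 4.44 and 5.11 in CD4 cells, under the array medians of 6.35 or more. Nr4a1, an early reporter of receptor signalling, differed by 0.58 and Egr2, a factor of anergy, by -0.72, without a call for either. Of 15 measured genes of the receptor complex and its signalling chain, 5 were lower in CD8 cells (Cd247, Cd28, Vav1, Cd3g and Cd2) and 0 were higher. The count of 5 was 3 without the first or second CD8 array. Cd247, the zeta chain, differed by -1.02 (adjusted p = 0.000191). Of its 4 probe sets 2 were called lower, and its call was lost with their mean. The pan T cell list of 7 measured genes, with 3 of these called lower, had a median of -0.38.

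The most uniform gene group was ribosome biogenesis, the making of ribosomes in the nucleolus. Of 17 measured members, 15 were higher in CD8 cells and 0 were lower, with a median difference of 1.02 against -0.004 for all genes and 6.65% of all genes called higher. The mean log2 signal of the list was 10.46, 10.75 and 10.49 on the CD8 continuous arrays, against 9.78, 9.96 and 9.30 on the CD4 continuous arrays. All CD8 arrays were above all CD4 arrays. Nop56, a core protein of small nucleolar ribonucleoproteins, had 11.32, 11.28 and 11.10 in CD8 cells, against 10.14, 10.24 and 9.78 in CD4 cells (difference 1.18, SE 0.13, adjusted p = 0.000152). Gnl3, a nucleolar GTPase, differed by 1.35 (adjusted p = 0.0134), Polr1b, a subunit of RNA polymerase I, by 1.22 (adjusted p = 0.00502), and Nop2, a ribosomal RNA methyltransferase, by 1.16 (adjusted p = 0.00121). The Gnl3 call was lost without the second CD8 array (adjusted p = 0.0623) and the Polr1b call when only the continuous arrays were fitted (adjusted p = 0.0596). Npm1, at 0.18, and Nip7, at 0.05, were the members not called. The count of 15 was 14 without both arrays that stood apart and between 8 and 15 when each was left out. It was lowest without the second CD8 array, was 8 when only the continuous arrays were fitted and was 0 in the fit of all 28 arrays. In unstimulated cells the median of the same list was 0.01 and in transient cells 0.36.

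Genes of amino acid uptake, serine synthesis and one-carbon metabolism also leaned to CD8 cells, with 6 of 17 measured members higher, against 6.65% of all genes, 0 lower and a median of 0.41. The count was 5 to 8 when each array was left out and 6 without both arrays that stood apart. Asns, asparagine synthetase, had 10.03, 10.11 and 9.16 in CD8 continuous cells, against 7.82, 8.48 and 7.11 in CD4 continuous cells (difference 1.96, SE 0.38, adjusted p = 0.00533). Shmt2, the mitochondrial enzyme that splits serine into glycine and a one-carbon unit, had 10.91, 10.64 and 10.75 in CD8 cells, against 8.72, 9.41 and 8.95 in CD4 cells (difference 1.74, SE 0.17, adjusted p = 4.35e-05). Its cytosolic counterpart Shmt1 differed by 1.72 (adjusted p = 0.00277), against 0.0522 when only the continuous arrays were fitted. Phgdh, the first enzyme of serine synthesis, had 12.24, 11.98 and 12.00 in CD8 cells, against 10.58, 11.00 and 10.92 in CD4 cells (difference 1.24, SE 0.12, adjusted p = 5.47e-05). Mthfd1, a cytosolic folate enzyme, differed by 1.16 (adjusted p = 0.000280) and Slc7a5, the light chain of a large neutral amino acid transporter, by 1.17 (adjusted p = 0.0299).

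**Figure D3:**
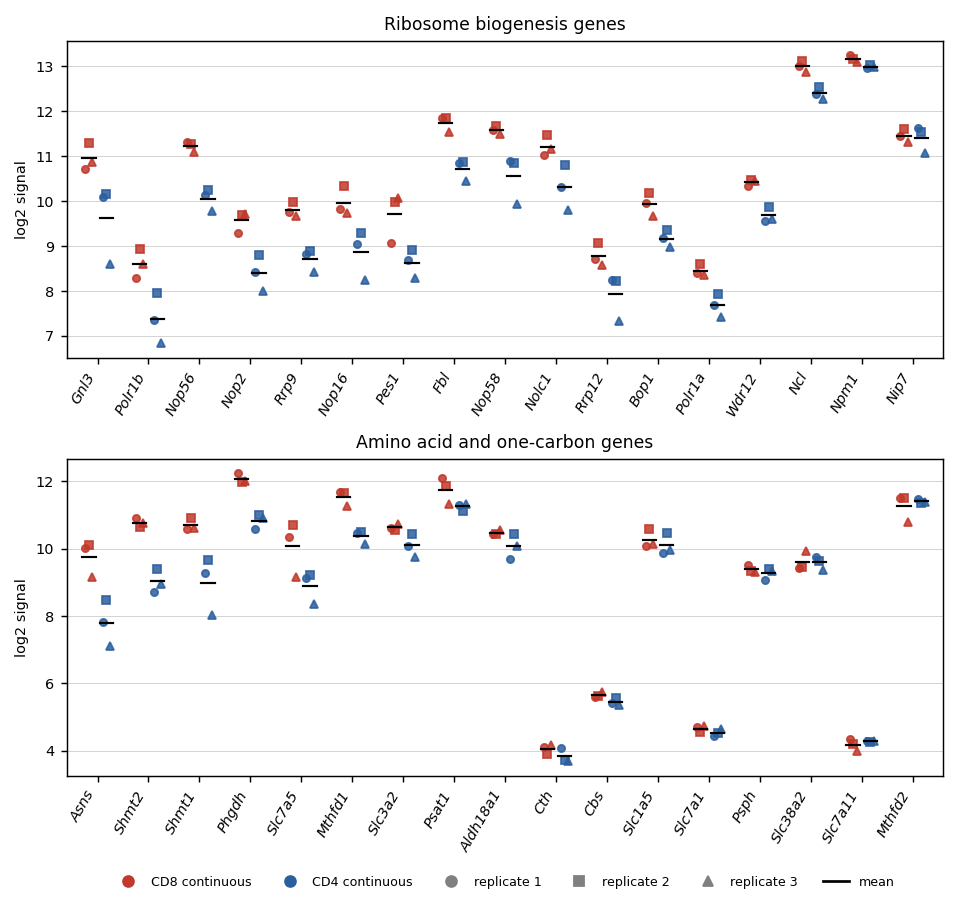
Log2 signals (vertical axis) of the 17 ribosome biogenesis and the 17 amino acid and one-carbon genes measured, ordered by the difference; CD8 continuous arrays are red, CD4 continuous arrays blue, marker shape gives the replicate number and black bars are means of 3 arrays. For Nop56 all CD8 arrays, at 11.10 or above, lie over all CD4 arrays, at 10.24 or below.

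Other growth and cycle genes were less clear, and their counts are read against 6.65% of all genes called higher and 4.65% called lower. Myc, a transcription factor that drives ribosome production, had 9.11, 10.62 and 10.60 in CD8 cells, against 9.09, 9.23 and 7.01 in CD4 cells. The lowest CD8 array lay inside the CD4 range, and the difference of 1.66 (adjusted p = 0.0484) lost its call without the third CD4 array or without the second or the third CD8 array (adjusted p 0.134 to 0.171). Of 34 cell cycle genes, 3 were higher (Mcm3, Mcm7 and Cdk4) and 0 lower. The count of 3 was 0 without the first or second CD4 array, without the first or second CD8 array and without both arrays that stood apart. Of the 5 probe sets of Mcm3, 4 were called higher and 1 lower, and its call was lost with their mean. Mcm7 was called on 1 of its 4 probe sets. Mki67, a marker of dividing cells, differed by -0.07 (interval -1.13 to 1.00). Glycolysis genes gave 2 higher of 13 (Slc2a3, a glucose transporter, at 1.21 with adjusted p = 0.00174, and Pfkl). The Pfkl call was lost without the first CD4 or the first CD8 array (adjusted p = 0.0574 and 0.0559), which left 1. Respiratory chain genes gave 3 higher of 19, a count that was 0 without the first CD4 or the first CD8 array. In the BCL2 family of survival regulators, the death-promoting Bid was higher by 1.19 (adjusted p = 0.000624) and the survival factor Mcl1 was lower, at -0.72, in CD8 cells.

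Quiescence and homing genes gave 4 lower of 15 in CD8 cells (Txnip, S1pr1, Btg1 and Slfn2) and 0 higher, against 4.65% of all genes called lower, with a median of -0.44 and 1 to 5 called when each array was left out, lowest without the first CD4 or the second CD8 array. Txnip, which restrains glucose uptake, differed by -1.10 (adjusted p = 0.00914). It was called on 1 of its 2 probe sets. The call was lost with their mean and when only the continuous arrays were fitted. Il7r, the survival receptor of resting cells, differed by 0.13 and Ccr7, the lymph node homing receptor, by 0.06, neither of them a call. Interferon response genes had a median of -0.65 over 22 members but only 3 were lower (Gbp3, Gbp2 and Irf9). That count was 0 without the first CD4 array, which also carried the highest myeloid signal; the part of that array's myeloid signal in the result was not tested. In the remaining lists, sterol synthesis had 2 lower of 12, S100, annexin and galectin genes 2 lower of 15, adhesion 2 lower of 14, chemokine receptors 1 lower of 16 and the unfolded protein response 1 lower of 17. The sterol count was 0 without any 1 of 5 arrays, all but the third CD4 array, and the S100 count without the first CD4 or the second or the third CD8 array. The chemokine receptor count was 0 without the first CD4 or the second CD8 array, and the adhesion count was 1 without any 1 array other than the first CD8 array.

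**Figure D4:**
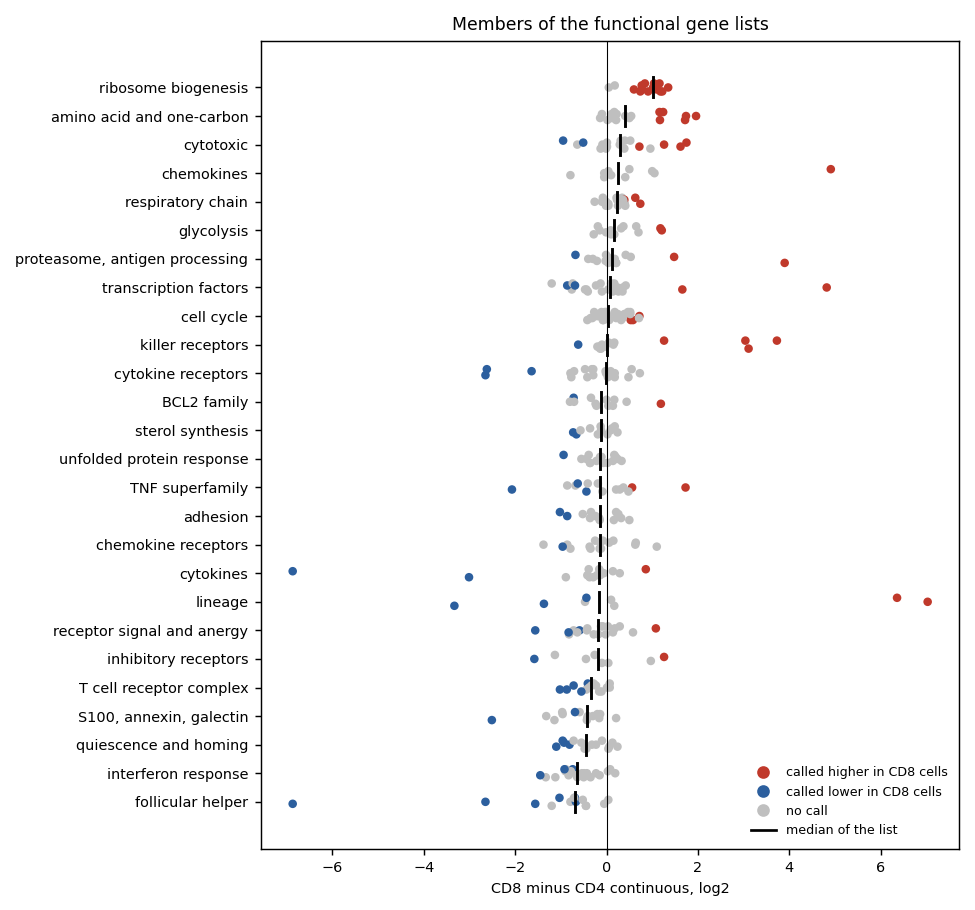
Members of the 26 functional lists, placed by their CD8 minus CD4 continuous difference in log2 (horizontal axis), 1 row per list ordered by its median (black bar); red members were called higher and blue members lower in CD8 cells, grey members were not called. Ribosome biogenesis, with a median of 1.02 and 15 of 17 members called higher, is the top row; follicular helper genes, at -0.70, are the bottom row.

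Some large differences came with a measured limit. H2-D1, a classical MHC class I gene, differed by 3.90 on the probe set used, but of its 9 probe sets 4 were called higher, the highest at 5.68, and 3 were called lower, the lowest at -5.10. Its probe sets therefore give no single direction. Antigen processing genes gave 2 higher and 1 lower (Tapbp) of 17, against 6.65% and 4.65% of all genes. The 2 higher were H2-D1, on the probe set used, and H2-K1, at 1.48. The 4 H2-K1 probe sets ran from 0.39 to 3.70, and 2 of them were called. The H2-D1 probe sets at 5.68 and -5.10 had 5.39 and -4.43 in unstimulated cells and 5.98 and -3.98 in transient cells. Nefh, a neurofilament gene, had 5.92, 9.91 and 10.23 in CD8 cells, against 5.49, 5.49 and 5.07 in CD4 cells, and its call (3.34, adjusted p = 0.0242) was lost without any 1 of the CD4 arrays or the second or the third CD8 array (adjusted p 0.0549 to 0.106). Cd79b, a chain of the B cell receptor, had 8.10, 7.51 and 8.42 in CD8 cells, against 5.73, 4.93 and 4.93 in CD4 cells (difference 2.81, adjusted p = 0.00424). It was the 1 called member of 12 B cell markers, whose summed linear signal was 2730 to 13000 in CD8 cells and 2790 to 4820 in CD4 cells; the part of B cell RNA in the Cd79b result was not tested. Bex1, a small adaptor known mainly from neurons, had 6.80, 6.70 and 7.03 in CD8 cells, against 3.73, 4.31 and 3.40 in CD4 cells (difference 3.03, SE 0.26, adjusted p = 1.59e-05), and no omission of an array ended that call. S100a4, a calcium-binding protein of effector cells, differed by -2.51, a call lost without the first CD4 array or without the second or the third CD8 array (adjusted p 0.056 to 0.0757).

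Markers of other cell types are read against 6.65% of all genes called higher and 4.65% called lower. Myeloid and plasma cell markers gave 0 called of 12 and 0 of 6, dendritic cell markers 1 higher of 6 (Itgax) and red cell markers 1 higher of 4 (Car2), the last 2 counts being 0 without the first CD8 array. Regulatory T cell markers gave 3 lower of 8 in CD8 cells (Ctla4, Gpr83 and Tnfrsf18) and 0 higher, a count of 1 without the first CD8 array, and Foxp3, their defining factor, was not called.

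Whether the lineages already differed in the other day 5 states was read from the same fit. In unstimulated cells 3565 genes (28.8%) differed between CD8 and CD4 cells, and in transient cells 3352 (27.0%), both more than under continuous antigen. In both of these states the actin 3′ to 5′ gap differed between the lineages too. It was 1.92 to 2.44 in CD8 and 0.67 to 0.98 in CD4 unstimulated cells. In transient cells it was 0.66 to 1.02 in CD8 and 2.42 to 2.73 in CD4 cells. The part of this reading in the 2 counts and in the overlaps below was not tested. Of the 824 genes higher in CD8 cells under continuous antigen, 201 (24.4%) were also higher in unstimulated cells and 137 were lower there. The 201 are 11.4% of those higher in unstimulated cells. Of the 576 lower genes, 189 (32.8%) were also lower in unstimulated cells, which is 10.5% of those, and 70 were higher there. Over all genes, 14.3% were higher and 14.5% lower in unstimulated CD8 cells. In transient cells, 299 of the 824 (36.3%) were also higher, which is 15.6% of those higher there, and 155 of the 576 (26.9%) were also lower, which is 10.8% of those lower there. Over all genes, 15.5% were higher and 11.6% lower in transient CD8 cells. On day 2 the lineages differed in 350 genes (2.82%), and 41 of the 824 and 39 of the 576 were called in the same direction there. Called in the same direction in all 4 comparisons were 16 higher genes, among them Cd8a, Cd8b1, Eomes, Klrc1 and Klrd1, and 16 lower genes, among them Cd4 and Cap1.

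The lineage gap under continuous antigen differed from the gap in unstimulated cells in 2456 genes (19.8%), toward CD8 cells in 1408 (11.4%) and toward CD4 cells in 1048 (8.46%). It differed from the gap in transient cells in 2318 genes (18.7%), toward CD8 cells in 989 (7.98%) and toward CD4 cells in 1329 (10.7%). Technical readings moved with these 2 counts. The actin 3′ to 5′ gap was 1.92 to 2.44 in CD8 unstimulated cells and 2.42 to 2.73 in CD4 transient cells, against 1.02 or less in the other day 5 groups, and the mean B cell marker signal was 9.82 and 8.80 in CD4 transient cells and 9.00 on the first CD8 unstimulated array. The mean myeloid signal was 10.02 on that CD8 array and 10.00 on the second CD4 transient array; their part in these counts was not tested. Genes called under continuous antigen whose gap also differed from both other states numbered 79 higher and 60 lower in CD8 cells, with Xcl1, Eomes, Bex1, Tnfrsf9 and Mthfd1 among the higher and Il21, Tgfb3, Il10, Metrnl, Emp1, Il6ra and Maf among the lower.

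For some effector and homing genes a gap in unstimulated cells was not called under continuous antigen. Nkg7, a granule membrane protein of killer cells, had 12.87, 12.82 and 12.98 in unstimulated CD8 cells, against 7.11 and 7.64 in unstimulated CD4 cells, a difference of 5.51. Under continuous antigen its difference was 0.31, since CD4 cells lay 5.69 above their unstimulated level and CD8 cells 0.48 above theirs. Ccr9, the gut homing receptor, had a difference of 5.67 in unstimulated cells and -0.86 under continuous antigen. Relative to their unstimulated level, CD8 cells lay at -5.68 and CD4 cells at 0.85. Both shifts of the gap passed the test, at -5.21 for Nkg7 and -6.52 for Ccr9. Cxcr3, a receptor for inflammatory chemokines, had 3.42 in unstimulated cells and -0.37 under continuous antigen, and the chemokine gene Ccl5 had 2.87 and -0.79.

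**Figure D5:**
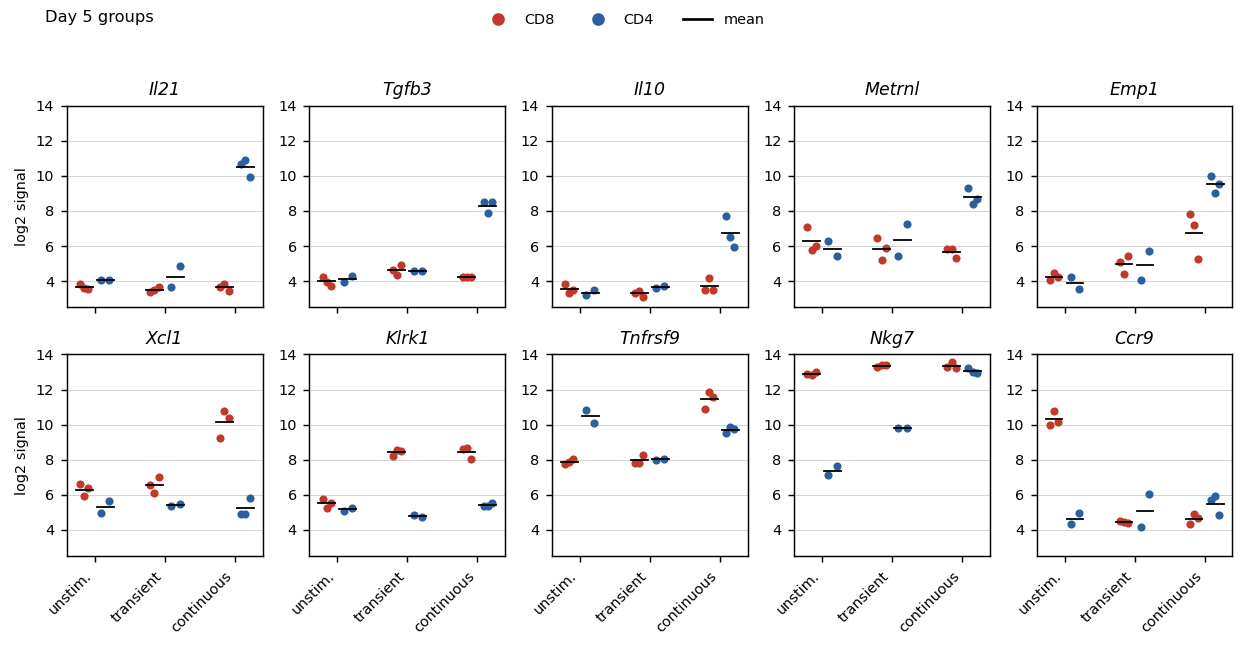
Log2 signals (vertical axis) of 10 genes in unstimulated, transient and continuous day 5 cells, CD8 arrays in red and CD4 arrays in blue, with black bars for means of 2 or 3 arrays. Il21, Tgfb3 and Il10 are high only in CD4 continuous cells among the groups drawn, Xcl1 is highest in CD8 continuous cells, and the wide gap of Nkg7 and Ccr9 in unstimulated cells is not seen under continuous antigen.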

How the data were processed

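The authors deposited 1 table of log2 values for 22690 probe sets on 28 Affymetrix Mouse 430A2 arrays, made with RMA per the submitters' processing notes, which give no version or genome build; no counts exist for arrays, so precision is set by the number of arrays. All values were used as deposited. Probe sets with 1 gene symbol (20380) were kept, 691 with several and 1555 with none were left out, and each of 12393 genes was represented by 1 probe set, that of highest average signal on the day 5 arrays. limma 3.58.1 in R 4.3.3 fitted the 16 day 5 arrays with 1 term for each of the groups, followed by eBayes, and p-values were adjusted by Benjamini-Hochberg over all 12393 genes; the call was an adjusted p under 0.05. Differences are CD8 minus CD4 continuous, and the gap was set against that of unstimulated and transient cells as a difference of differences. The day 2 comparison was fitted on its own 6 arrays. On simulated data for this comparison (12393 genes), 82% of genes changed by 1 log2 unit and 97% of those changed by 2 were called, with 7 false calls. The simulation drew independent noise for each gene, so its false calls do not cover shifts shared by many genes of 1 array. It also gave a gene the same spread in every group, so its figures do not cover groups or arrays of unequal spread. Named genes were the 10 largest called differences each way without overlap between arrays, up to 4 called members of each list, a preset list of T cell genes and, for each difference of differences, the 6 largest each way; genes in list counts are named in full, and single members beyond the rule, as well as the examples from the genes whose gap also differed from both other states, were chosen after their values were seen. Members and lists were chosen with earlier results of these data known, and 42 listed genes had no value and were not analysed here. Alternatives were another choice of probe set, other normalization and fits, stricter thresholds and omission of each array. Promoter windows are from RefSeq, and figures were drawn with matplotlib 3.10.9.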

Additional observations from a re-analysis of the deposited data

Results flagged for a closer look

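The results below were singled out because the CD8 minus CD4 gap under continuous antigen differed, by a test of the difference itself in limma, from the gap in another day 5 state. All values are differences of log2 differences, with a positive value meaning a gap more toward CD8 cells under continuous antigen. The actin 3′ to 5′ readings of CD8 unstimulated and CD4 transient cells, and the B cell marker signal of CD4 transient cells, moved with these contrasts, and their part was not tested.

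Against unstimulated cells, the gap moved toward CD8 cells by 4.31 for Tnfrsf9, 4.26 for Lad1, 4.05 for Fasl, 3.92 for Xcl1, 3.87 for Phpt1, 3.86 for Pdlim4, 1.71 for Bex1 and 1.40 for Eomes. It moved toward CD4 cells for Ccr9 at -6.52, Il21 at -6.45, Nkg7 at -5.21, Plac8 at -4.72, Frmd4b at -4.44, Tgfb3 at -3.93, Metrnl at -3.57, Il10 at -3.20 and Emp1 at -3.14. Smaller shifts in that direction were -1.84 for Il6ra, -1.60 for Klrd1, -0.86 for Cd4 and -0.72 for Cd8b1. For Fasl, the ligand that triggers death through Fas, the lineages lay at 4.70, 3.93 and 5.71 in unstimulated CD8 cells, against 7.82 and 7.90 in unstimulated CD4 cells.

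Against transient cells, the gap moved toward CD8 cells by 7.13 for Ms4a1, 6.16 for Cd24a, 6.06 for Ly6d, 5.65 for Scd1, 5.33 for Cd79b and 4.78 for Fcrla. Of these 6, Ms4a1 and Cd79b were on the list of B cell markers. Other genes with a shift toward CD8 cells included Fasl at 4.05, Xcl1 at 3.78, Bex1 at 1.87, Tnfrsf9 at 1.79 and Eomes at 1.45. The gap moved toward CD4 cells for Il21 at -6.13, Tgfb3 at -4.11, Psmb7 at -4.06, Cxcr6 at -3.88, Cdc25b at -3.41, Ccl5 at -3.41, Emp1 at -2.83, Il10 at -2.65, Metrnl at -2.63, Il6ra at -2.40, Cd4 at -2.28, Klrd1 at -1.56 and Cd8b1 at -0.80.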

How the results depend on the processing

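The counts of called genes depended most on which arrays shared the fit. Fitting only the continuous arrays gave 804 genes (468 higher and 336 lower in CD8 cells), and fitting all 28 gave 27 (12 and 15), with 16 (8 and 8) for the gap against unstimulated cells and 19 (10 and 9) for that against transient cells; the cause was not tested. Array weights gave 2422 (1341 and 1081), and 1602 lower against unstimulated cells. At an adjusted p under 0.01 there were 544 (332 and 212), 1204 (782 and 422) and 1143 (433 and 710) in these 3 comparisons, and with a 2-fold minimum 342 (185 and 157), 1246 (846 and 400) and 1328 (547 and 781). Testing every probe set gave 869 lower, 3889 against unstimulated cells (2334 higher) and 3585 against transient cells (1500 and 2085), since more features were tested. Leaving out 1 array at a time gave 824 to 1448 genes (470 to 831 higher, 333 to 617 lower), 1512 to 2455 (970 to 1403 and 528 to 1054) and 1551 to 2309 (661 to 947 and 890 to 1362). The lowest main counts were 824 without the second CD8, 865 without the first CD4 and 869 without the first CD8 continuous array, and 1512 came without the first CD4 unstimulated array. Without the first CD4 and the third CD8 arrays, chosen after the data were seen, the counts were 1173 (627 and 546), 2207 (1244 and 963) and 2252 (867 and 1385). Among the named genes with a call, Dnajc3 changed sign, being 0.05 (adjusted p = 0.875) with the mean of its probe sets against -0.94; uncalled genes such as Gzmb (-1.25 to 0.72) and Gzma (-0.49 to 2.17) also took either sign. Of 84 named genes called, 14 kept the call under every alternative, 37 lost it without some continuous array and 37 with only the continuous arrays.

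Same-numbered CD8 and CD4 continuous arrays correlated at 0.15, 0.11 and -0.14 in their deviations from the group mean. Arrays with different numbers ran from -0.34 to 0.21. With only 3 arrays behind each mean, these values cannot decide whether replicate numbers pair the samples. With the replicate number as a block, 1365 genes were called (796 higher, 569 lower), with 2386 and 2144 for the differences of differences.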
